A study of Mus musculus with 20 samples.

Results

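Aquaporins are membrane channels for water, and some of them also pass glycerol, while the Slc14a family carries urea. In the airway, Aqp5 and Aqp1 are known for water movement across gland acini and capillaries, Aqp3 for water and glycerol transport in basal epithelial cells and Aqp4 for the basolateral membrane of epithelial cells, and Aqp7 is known as the channel through which fat cells release glycerol. Slc14a1 is the urea transporter of red cells and capillaries and Slc14a2 that of the kidney tubule. The 8 genes Aqp1, Aqp3, Aqp4, Aqp5, Aqp7, Aqp9, Slc14a1 and Slc14a2 were found on the arrays by exact gene name, which gave 16 probes of the 41174 measured. Testing required a signal well above background on 10 or more of 20 arrays, which 13 of the 16 probes, from 7 genes, and 26063 probes in all had.

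RNA of whole mouse trachea, cleaned of connective tissue, was hybridised to one-colour Agilent arrays, 5 in each of 4 groups. The groups were uninjured wild-type (C57/Bl6), wild-type 3 days after 2% polidocanol, uninjured Myd88KO, and Myd88KO 3 days after the same injury, all from mice labelled as 4 months old. Polidocanol is a detergent that strips the surface epithelium, and Myd88 is the adaptor of most Toll-like receptors and of the interleukin-1 receptor. The knockout is global, and it was bred by crossing knockouts while wild-type mice came from another colony, so that genotype and colony cannot be told apart. Whole trachea mixes epithelium, glands, cartilage, muscle, vessels and attached fat, and fewer cells of a type and less RNA per cell cannot be told apart here. Levels are given as log2 intensity with the 75th percentile of each array at 0, and differences between groups as log2 differences. A difference was called where its Benjamini-Hochberg adjusted p in limma, over all tested probes, lay under 0.01. The genes were selected on group values of these same arrays, so that the calls describe the fit and are not independent evidence.

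The Myd88 probe was not placed here against the exons removed in the knockout. It read 1.94 to 2.28 in uninjured wild-type and 1.60 to 2.04 in uninjured Myd88KO arrays, which overlapped. It read 2.36 to 2.80 in injured wild-type and 1.54 to 2.09 in injured Myd88KO arrays, which did not (adjusted p = 0.00824 in limma). Array numbers coincide with slides, since each of the 5 slides held 1 array of each group under the same number. Xist, the transcript of the inactive X chromosome, was high (3.25 to 4.87) on 13 arrays and low (-7.26 to -4.26) on 7, with the Y-linked Eif2s3y the other way round (-7.42 to -5.29 and -0.46 to 1.45). The arrays low in Xist were numbers 2 and 3 in 3 groups and number 5 alone among injured Myd88KO tracheas. This array 5 also had the lowest summed macrophage markers (3.46) and neutrophil markers (0.40) and the highest summed secretory cell markers (2249) of its group, as linear levels relative to the 75th percentile. It had 192 outlier spots, against 69 to 113 on the other arrays, and the lowest share of spots well above background (57.5%), and its array weight was 0.313, with 0.310 for injured Myd88KO array 1. Without it, calls between injured and uninjured Myd88KO tracheas went from 98 to 1075 over all probes.

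Slc14a1 differed between the uninjured genotypes on both of its probes. Its higher level in uninjured Myd88KO trachea is the measure on which the study itself selected it, and is given as a description. Its 2 probes lie on the minus strand of chromosome 18, probe 1 at 78385717 to 78385776 and probe 2 at 78387257 to 78387316, in the positions of the files, whose genome build is not given in the sources used here. On probe 2, the uninjured Myd88KO arrays read -1.54, -1.65, -1.28, -2.05 and -1.79, in array order. The uninjured wild-type arrays read -3.02, -3.31, -3.61, -3.84 and -3.45. All Myd88KO arrays lay above all wild-type arrays, with a mean difference of 1.78 ± 0.30 (SE, n = 5 and 5), or 3.45-fold, and of 1.48 to 2.33 within the slides. Probe 1 showed the same order with a smaller gap. It read -1.66, -2.08, -1.77, -1.87 and -1.51 in Myd88KO against -2.27, -2.80, -2.70, -2.64 and -2.20 in wild-type, again with no overlap, a difference of 0.75 ± 0.26 (SE). The gap on probe 2 was present among arrays high in Xist, which read -2.05 to -1.54 in Myd88KO and -3.84 to -3.02 in wild-type, and among those low in Xist, which read -1.65 to -1.28 and -3.61 to -3.31.

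After injury, Slc14a1 was no longer separated by genotype. On probe 2, injured Myd88KO arrays read -3.55, -3.22, -3.95, -3.31 and -1.87, so that arrays 1 to 4 lay within or beside the wild-type values and array 5 lay among the uninjured Myd88KO values. Injured wild-type arrays read -2.83, -3.36, -3.61, -3.78 and -2.92, overlapping their uninjured controls. The injury comparison in Myd88KO uses the uninjured arrays on whose high level the gene was selected. A fall is thus partly built in, and the p-values below describe the fit and are not independent evidence. Injury went with a difference of -1.52 ± 0.30 (SE) in Myd88KO (adjusted p = 0.0114, lower on 5 of 5 slides, by 0.08 to 2.67) and of 0.14 ± 0.30 in wild-type (adjusted p = 0.802). The Myd88KO value lay just outside the threshold and passed it without array 5 (-1.85 ± 0.23, adjusted p = 5.46e-05) and among the arrays high in Xist alone (-1.72 ± 0.28, adjusted p = 0.00619, 3 against 4 arrays), but not with Xist as a term of the fit (-1.46 ± 0.29, adjusted p = 0.0170). It also passed with the slide as a block (adjusted p = 0.00939), with scan day as a term (0.00398), with array weights (0.000161) and with normexp background (0.00854). It did not pass in the 2 groups alone or by a one-way test run on those 2 groups, the adjusted p over these alternatives reaching 0.175. Nor did it pass with quantile scaling, without a filter, with probes above background on all arrays, with the deposited values or with outlier spots kept. Leaving out any other single array also left it outside the threshold. Array 5 is the single injured Myd88KO array low in Xist, so that its Slc14a1 level, its low leukocyte markers, its outlier spots and its Xist level cannot be told apart. On probe 1, Myd88KO arrays overlapped, from -3.03 to -1.97 (mean -2.39) with and -2.08 to -1.51 (mean -1.78) without injury. This fall was not called, also with the slide as a block (adjusted p = 0.0797 in limma) or without array 5 (0.0853). Wild-type means of probe 1 were -2.20 with and -2.52 without injury, also not called.

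The responses of the genotypes to injury differed by -1.66 ± 0.42 (SE) on probe 2, in that direction on 5 of 5 slides (adjusted p = 0.390 in limma). On probe 1 the difference was -0.94 ± 0.36 (adjusted p = 0.410), also on 5 of 5 slides. No probe of the 26063 was called for this difference (0% of those tested), while 2703 had an unadjusted p under 0.05. The comparison of injured genotypes gave 0.12 ± 0.30 on probe 2 (95% interval -0.50 to 0.74, adjusted p = 0.908) and -0.19 ± 0.26 on probe 1 (adjusted p = 0.810). These comparisons share the uninjured Myd88KO arrays on which the gene was selected, apart from the last. The study also left out transcripts that differed between injured and control tracheas, so that the injured arrays took part in the selection too.

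**Figure D1:**
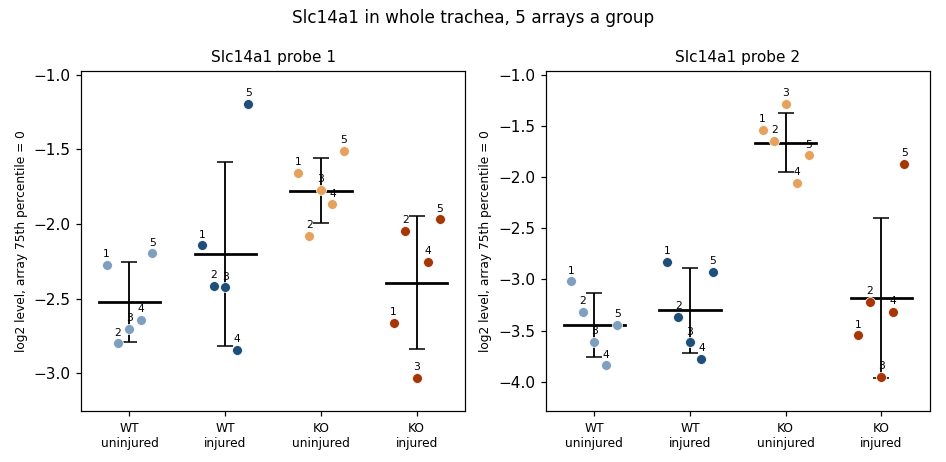
Log2 level of Slc14a1 by group for its 2 probes, with the array's 75th percentile at 0; points are arrays with their number, long bars means and whiskers SD over 5 arrays. The uninjured Myd88KO arrays of probe 2 sit between -2.05 and -1.28, above all uninjured wild-type arrays, and injured Myd88KO array 5 at -1.87 is the single injured array among them.

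Endothelial and erythroid cells, which are known to carry Slc14a1, did not separate the uninjured genotypes. The summed endothelial markers (7 of 7 tested, among them Pecam1 and Cdh5) ranged from 20.3 to 31.6 in uninjured wild-type and 25.8 to 31.0 in uninjured Myd88KO arrays. The erythroid markers (4 genes, all tested, among them Hba-a1 and Alas2) ranged from 67.3 to 306 and from 51.3 to 179. No gene of either list was called in any of the 5 comparisons. On injured Myd88KO arrays the erythroid sum was 94.9, 23.3, 19.4, 27.4 and 65.1, so that array 5, the one high in Slc14a1 probe 2, was above arrays 2 to 4 and below array 1. The part of red cells in the Slc14a1 difference was not tested. The genes whose log2 level over the 20 arrays was most like Slc14a1 on probe 1 were Pdgfb (r = 0.89), Tbkbp1 (r = 0.86) and Sncaip (r = 0.85), a description over arrays that share slides and groups.

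Around Slc14a1, 31 probes from 19 genes within 2 Mb were tested. In uninjured trachea probe 2 of Slc14a1 was the single one of them called, beside 0.384% of all tested probes. Nothing is read from that call, since the gene was selected on this contrast. The next in size was Rnf165, at -2.90 in Myd88KO and -3.91 in wild-type, a difference of 1.02 ± 0.23 (SE, adjusted p = 0.0448) without overlap, named here after its value was seen. After injury none of the 31 was called, and Rnf165 gave -0.52 ± 0.23 (adjusted p = 0.341).

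Slc14a2, which lies next to Slc14a1, did not follow it. Its brightest probe (chromosome 18, 78468747 to 78468806) read -1.49 to -0.48 in uninjured wild-type and -1.30 to -0.54 in uninjured Myd88KO arrays, a difference of -0.14 (95% interval -0.55 to 0.27). In injured trachea the same probe read -0.81, -1.15, -0.86, -0.82 and -0.49 in wild-type and -0.86, -1.26, -1.53, -1.62 and -1.26 in Myd88KO. The Myd88KO array was the lower one on 5 of 5 slides, the groups overlapped, and the difference of -0.48 ± 0.19 (SE) was not called (adjusted p = 0.303). Probe 2 of Slc14a2 stayed between -3.58 and -2.52 on every array. Probe 3 ranged from -7.44 to -1.29, was well above background on 14 arrays and gave intervals as wide as -4.53 to -0.40 (injured genotypes, adjusted p = 0.297). Genes of urea production, from arginase to the urea cycle (5 of 7 tested, with Cps1 and Otc not well above background), had no call in any comparison.

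Aqp4 had lower means after injury in wild-type trachea on all 3 of its probes (chromosome 18, between 15742177 and 15742872). On probe 1 the uninjured wild-type arrays read 2.29, 1.83, 1.37, 1.60 and 2.17 and the injured ones 0.83, 1.02, 1.38, 0.67 and 0.69. The injured arrays lay below the uninjured ones except array 3, and the difference was -0.93 ± 0.27 (SE), or 1.91-fold (adjusted p = 0.0305). On probe 2 the values were 0.54, 0.19, -0.10, -0.07 and 0.11 before and -0.86, -0.31, -0.11, -0.55 and -0.99 after injury, with no overlap (-0.70 ± 0.23, adjusted p = 0.0483). On probe 3 they were -0.69, -0.52, -0.64, -0.56 and -0.69 before and -1.77, -0.83, -0.97, -1.25 and -1.59 after injury, again with no overlap (-0.66 ± 0.21, adjusted p = 0.0418). These values missed the threshold of 0.01, and the 3 probes read 1 transcript and are not independent.

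In Myd88KO trachea the Aqp4 probes spread more after injury. Probe 1 read 2.01, 1.50, 1.29, 1.64 and 1.75 without injury and 1.59, 0.19, 1.43, 0.69 and 1.96 with it, so that arrays 2 and 4 were low and the others were not. The differences were -0.47 ± 0.27 (adjusted p = 0.367), -0.14 ± 0.23 (adjusted p = 0.774) and 0.06 ± 0.21 (adjusted p = 0.914) on probes 1, 2 and 3. The difference between the genotypes in their response was 0.47 (95% interval -0.35 to 1.28) on probe 1, 0.56 (-0.12 to 1.23) on probe 2 and 0.72 (0.10 to 1.33) on probe 3, none of them called (adjusted p = 0.678, 0.545 and 0.431).

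**Figure D2:**
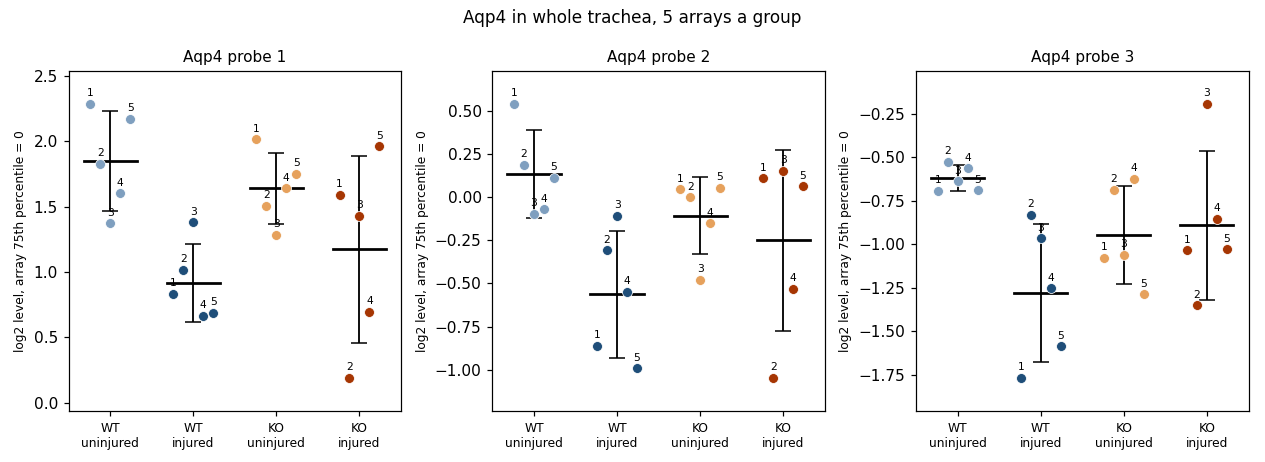
Log2 level of Aqp4 by group for its 3 probes, with the array's 75th percentile at 0; points are arrays with their number, long bars means and whiskers SD over 5 arrays. Injured wild-type arrays lie below the uninjured ones on probes 2 and 3, and injured Myd88KO arrays spread from 0.19 to 1.96 on probe 1.

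Aqp4 levels over the 20 arrays were most like those of Syne2 (r = 0.95), a linker of the nuclear envelope, Lca5 (r = 0.91), a protein of the ciliary axoneme, and Cdc14a (r = 0.91), a phosphatase. The summed ciliated cell markers (6 of 6 tested, among them Foxj1) also varied most after injury, from 2.66 to 48.1 in wild-type and 2.94 to 144 in Myd88KO arrays, against 20.4 to 53.2 and 29.4 to 39.7 without injury. Injured wild-type array 4 had the highest ciliated sum of its group (48.1) and an Aqp4 level of 0.67 on probe 1, beside 0.69 on array 5, whose ciliated sum was 4.27. On probes 2 and 3, array 4 was in the middle of its group. Arrays 4 and 5 are 2 of the 5 in their group, and the part of ciliated cells in the Aqp4 difference was not tested. The 5 genes of the dystrophin complex that anchors Aqp4 in the membrane had no call in any comparison. Their median difference after injury was -0.23 in wild-type, beside 0.00 over all tested probes, and -0.36 in Myd88KO, beside -0.07.

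Aqp7 was higher in uninjured Myd88KO than in uninjured wild-type trachea on every array, though the fit did not call it. Its 2 probes overlap in position (chromosome 4, 41172651 to 41172710 and 41172673 to 41172732) and count as 1 measurement. Probe 1 read -1.16, -1.60, -1.64, -1.47 and -1.46 in Myd88KO and -2.03, -2.20, -2.59, -1.98 and -2.31 in wild-type. The groups did not overlap, with a difference of 0.75 ± 0.33 (SE), or 1.69-fold, and an adjusted p of 0.786. The SD was 0.24 and 0.19 in the uninjured wild-type and Myd88KO groups and 0.83 and 0.64 in the injured ones, and the fit uses 1 spread for all. Injured wild-type arrays read -2.44, -3.60, -2.76, -1.34 and -2.16, and injured Myd88KO arrays -1.57, -2.96, -2.87, -2.98 and -2.07. Injury went with a difference of -1.03 ± 0.33 in Myd88KO (adjusted p = 0.0880, lower on 5 of 5 slides) and of -0.24 ± 0.33 in wild-type (adjusted p = 0.688). The difference between these responses was -0.79 ± 0.46 (adjusted p = 0.552). With array weights, the injury difference in Myd88KO became -1.29 (adjusted p = 0.00148) and was called, as was that of probe 2.

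**Figure D3:**
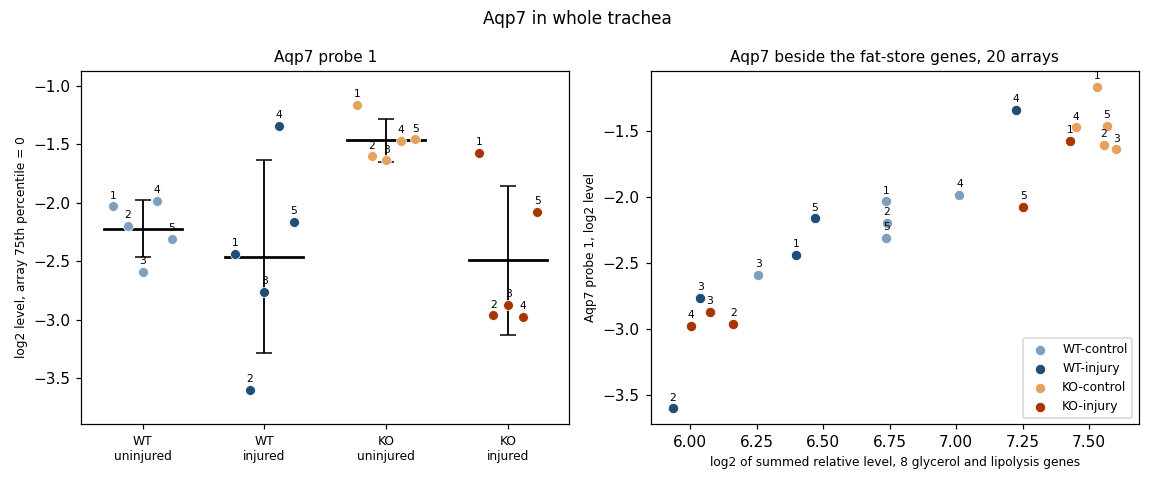
Left, log2 level of Aqp7 probe 1 by group, with points as arrays, long bars as means and whiskers as SD over 5 arrays; right, the same level on 20 arrays against the log2 sum of 8 glycerol and lipolysis genes, coloured by group. The 5 uninjured Myd88KO arrays lie together at the upper right, and the arrays low in Aqp7 are those low in the 8 genes.

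Some genes of fat cells varied with Aqp7 from array to array. Over the 20 arrays its level was most like those of Slc36a2 (r = 0.96), an amino acid transporter, Clstn3 (r = 0.95) and Plin1 (r = 0.94), the coat protein of fat droplets. Plin1 averaged 3.45 in uninjured Myd88KO and 2.53 in uninjured wild-type arrays, a difference of 0.92 ± 0.33 (SE, adjusted p = 0.521) without overlap, and -1.05 ± 0.33 after injury in Myd88KO (adjusted p = 0.0859). The summed level of the 8 genes of glycerol and lipolysis, Plin1 included, was 175 to 194 in uninjured Myd88KO and 76.5 to 129 in uninjured wild-type arrays, with no overlap. It was 61.2 to 150 in injured wild-type and 64.2 to 172 in injured Myd88KO arrays. None of the 8 was called in any comparison. Of the other fat lists, 5 of 6 adipocyte markers were tested, with Lep not well above background. They summed to 440 to 814 (median 445) in uninjured Myd88KO and 295 to 560 (median 509) in uninjured wild-type arrays. The median sum was thus lower in Myd88KO, while the median difference of the 5 genes was 0.49, beside 0.04 over all tested probes. The brown adipocyte markers (4 of 4 tested) summed to 95.1 to 249 and 69.1 to 150 in the same order, with a median difference of 1.98. No gene of these 2 lists was called in any comparison. The part of attached fat in the Aqp7 difference was not tested.

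Aqp7 and Aqp3 are neighbours on chromosome 4, yet Aqp3 did not show the pattern of Aqp7. Upstream stretches of both are shown because of this contrast. They run from base 250 to base 1 before a start site, in RefSeq's table for GRCm38.p6, Aqp7 at chr4:41048137-41048386 and Aqp3 at chr4:41098184-41098433, both on the minus strand. Capitals mark a match, on either strand, to the TATA box TATAAA, the GC box GGGCGG, the AP-1 site TGANTCA, the NF-kB site, the nuclear receptor core AGGTCA or the tonicity element core TGGAAA.
Aqp7: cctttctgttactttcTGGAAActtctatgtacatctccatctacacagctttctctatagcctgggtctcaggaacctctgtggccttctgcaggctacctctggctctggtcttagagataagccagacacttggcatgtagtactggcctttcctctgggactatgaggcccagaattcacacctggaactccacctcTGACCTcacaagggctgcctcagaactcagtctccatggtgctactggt
Aqp3: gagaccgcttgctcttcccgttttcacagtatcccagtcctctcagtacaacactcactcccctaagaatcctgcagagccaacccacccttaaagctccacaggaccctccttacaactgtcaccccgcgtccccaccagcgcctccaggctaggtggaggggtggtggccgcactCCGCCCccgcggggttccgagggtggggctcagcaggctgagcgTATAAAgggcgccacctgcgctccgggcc

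The Aqp3 stretch held a TATA box shortly before the start, a motif found in 12.4% of the 32851 stretches of this length in the table, and a GC box (32.7%). The Aqp7 stretch held neither, but had a nuclear receptor core (14% of stretches) and a tonicity element core (18.6%). Aqp7 has another start site, whose stretch overlaps the printed one. That stretch also held a nuclear receptor core, but no tonicity element core. The NF-kB site (0.356% of stretches) was in none of the 7 stretches of the 5 members searched, Aqp1, Aqp3, Aqp5, Aqp7 and Aqp9. Stretches of Aqp4, Slc14a1 and Slc14a2 were not searched. A match is no evidence of binding.

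Aqp3 read 6.10 to 7.03 in uninjured wild-type arrays (4 arrays, the spot of array 1 being an outlier and left out), 6.12 to 7.19 in uninjured Myd88KO, 6.16 to 7.36 in injured wild-type (4 arrays) and 6.71 to 7.10 in injured Myd88KO arrays. The groups overlapped throughout. The widest difference, 0.49 ± 0.26 (SE) after injury in Myd88KO, was not called (adjusted p = 0.312). Among uninjured Myd88KO arrays, number 5 at 7.19 stood above the others, which lay between 6.12 and 6.38. Its most alike genes were Upk3bl (r = 0.91), Leng9 (r = 0.89) and Fam241a (r = 0.87). The basal cell markers (7 of 7 tested) had no call, and their sums overlapped between all groups.

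Aqp5 read 6.86, 6.68, 6.64, 6.58 and 7.23 in uninjured wild-type arrays and 7.14, 6.96, 7.46, 6.96 and 7.69 in uninjured Myd88KO arrays. The Myd88KO array was the higher one on 5 of 5 slides, by 0.28 to 0.82, while the groups overlapped. The difference of 0.44 ± 0.19 (SE, adjusted p = 0.746) was not called. After injury the groups read 6.66 to 7.45 in wild-type and 6.91 to 7.53 in Myd88KO, a difference of 0.09 (95% interval -0.30 to 0.48). The summed gland markers (5 of 6 listed genes were on the array and tested) were 640 to 1095 in uninjured wild-type and 796 to 1516 in uninjured Myd88KO arrays, which overlapped. Among them, Lpo, the lactoperoxidase of gland cells, was called between the injured genotypes, lower in Myd88KO (-2.89 ± 0.47, adjusted p = 0.00221 in limma). Without injury Lpo gave -2.09 ± 0.47 (adjusted p = 0.0478), with no overlap in either comparison. The 5 gland genes did not share this fall. Their median difference between genotypes was 0.42 without injury, beside 0.04 over all tested probes, and 0.00 after injury, beside -0.03. The genes of most similar level to Aqp5 were Pik3r2 (r = 0.86), Zfp865 (r = 0.86) and Spns1 (r = 0.82).

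Aqp1 read 5.50, 4.94, 4.55, 4.95 and 5.02 in uninjured and 5.53, 5.17, 5.34, 5.39 and 5.55 in injured wild-type arrays. The injured array was the higher one on 5 of 5 slides, by 0.03 to 0.79, and the groups overlapped, so that 0.40 ± 0.17 (SE) was not called (adjusted p = 0.125). In Myd88KO it read 4.77 to 5.36 without and 4.74 to 5.26 with injury, a difference of -0.04 ± 0.17. Injured Myd88KO lay below injured wild-type by a difference of -0.36 ± 0.17 (adjusted p = 0.384). The genes most like it were Psmb10 (r = 0.91), a subunit of the immunoproteasome, Med11 (r = 0.90) and Eva1b (r = 0.90).

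**Figure D4:**
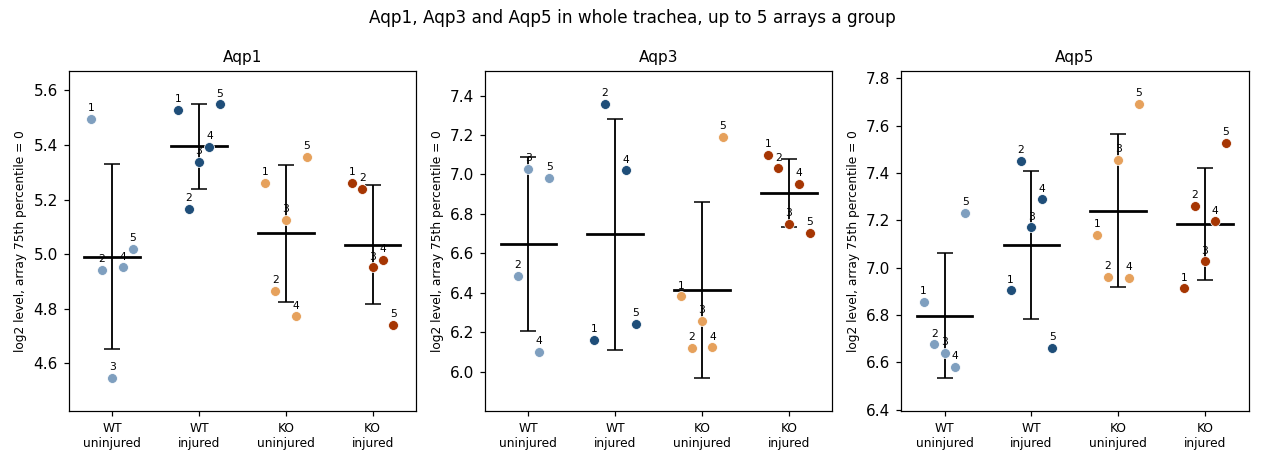
Log2 level of Aqp1, Aqp3 and Aqp5 by group, with the array's 75th percentile at 0; points are arrays with their number, long bars means and whiskers SD over 5 arrays, or 4 for Aqp3 in both wild-type groups. Groups overlap in every panel, and uninjured Myd88KO array 5 of Aqp3 stands at 7.19.

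Aqp9, known from liver and leukocytes, was not well above background on any array with any of its 3 probes, also in injured wild-type trachea, where the summed neutrophil markers reached 259. The remaining aquaporins on the array gave the same picture of levels without calls. Aqp2, Aqp8 and Aqp11 were tested, with group means of -1.36 to -0.92, -4.19 to -3.54 and -0.71 to -0.05. Mip was not well above background on any array, Aqp6 on 1 and Aqp12 on 2. The smallest adjusted p of the 3 tested genes over the 5 comparisons was 0.421.

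Over the members, 0 of 13 tested probes were called after injury in wild-type trachea, where 5.26% of all tested probes were, and 4 had an unadjusted p under 0.05, as had 26.4% of all probes. After injury in Myd88KO the count was 0 of 13, beside 0.376% of all probes, with 5 at an unadjusted p under 0.05, beside 19.5%. Between the uninjured genotypes 1 of 13 was called, Slc14a1 probe 2, beside 0.384%, with nothing read from it because the gene was selected on this contrast. An unadjusted p under 0.05 was found for 5, beside 5.59%. These 5 were both probes of Slc14a1, the 2 overlapping probes of Aqp7, and Aqp5, and nothing is read from their number either. Between the injured genotypes 0 of 13 were called, beside 0.38%, with 3 at an unadjusted p under 0.05, beside 12.5%. In all these counts, probes of the same gene are counted apart and are not independent.

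**Figure D5:**
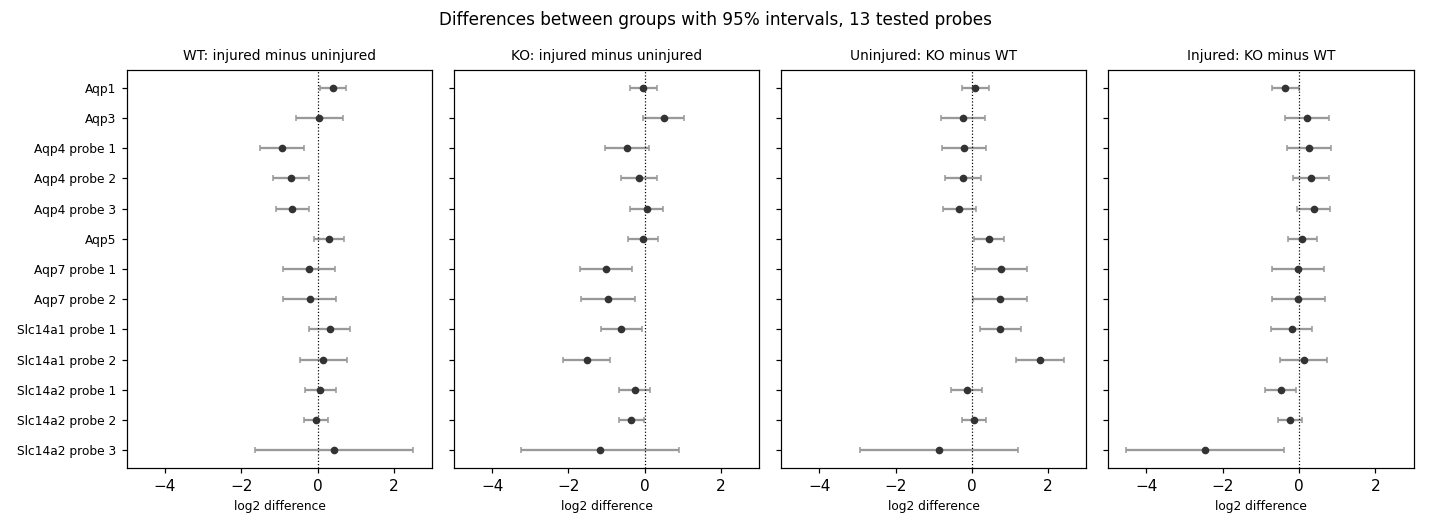
Log2 differences of the 13 tested probes in 4 comparisons, with points as estimates and whiskers as 95% intervals from the fit over all arrays; the dotted line marks 0. The intervals of Aqp4 after injury in wild-type and of Slc14a1 probe 2 in Myd88KO and between uninjured genotypes are among those on 1 side of 0.

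Of the genes that act with these channels, 10 of airway salt transport were tested, and 1 was called. Ano1, a chloride channel of the airway, was lower after injury in wild-type trachea by a difference of -0.74 ± 0.17 (SE, adjusted p = 0.00714), without overlap, and the median of the 10 was -0.58 beside 0.00 over all probes. Of 9 genes of the response to tonicity, Stk39, a kinase that acts on chloride transporters, was called higher after injury in wild-type (0.88 ± 0.19, adjusted p = 0.00541), with no overlap. The median of the 9 was -0.12, beside 0.00 over all tested probes, of which 5.26% were called in this comparison. In the other 4 comparisons no gene of these 2 lists was called. Of the lists of cell type markers, the secretory cell genes Scgb1a1 and Scgb3a2 were lower after injury in wild-type (-7.91 ± 0.69 and -5.77 ± 0.83), and 4 of 5 macrophage markers were higher, among them Cd68 (3.27 ± 0.53). In Myd88KO, Scgb1a1 was called lower as well (-6.24 ± 0.73). Csf3r, a neutrophil receptor, was called higher after injury in wild-type, and the alveolar surfactant genes Sftpc and Sftpa1 lower in wild-type and Sftpa1 and Sftpb lower in Myd88KO. No cartilage, skeletal muscle or thyroid marker was called in any comparison.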

How the data were processed

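For 20 one-colour arrays of mouse trachea RNA, the authors deposited scanner output of Agilent Feature Extraction 9.5.1.1 with background-subtracted intensity per spot, and a value table of the same intensity. Control spots and outlier-marked spots were left out here, spots of 1 probe averaged (41174 probes), and log2 intensity centred on each array's 75th percentile (linear intensity 495 to 972). Between 57.5% and 67.8% of spots were well above background, and 5 arrays a group limit the precision. Probes well above background on 10 arrays or more (26063), after the 50% presence filter of the study, were fitted with limma 3.58.1 in R 4.3.3, with 4 groups and no block, as 5 contrasts with Benjamini-Hochberg adjustment at 0.01. The fit was tested on simulated data. Members and gene lists were chosen with earlier results of these arrays known. Named genes were all members and other aquaporins, Myd88, up to 2 called genes a direction in each list and comparison, the 3 genes of highest Pearson correlation with each member (brightest tested probe), and neighbours of Slc14a1. Marker lists also covered alveolar, cartilage, muscle and thyroid cells. Array numbers are slides. Same-numbered uninjured arrays of the genotypes deviated together (correlations 0.25 to 0.48 in 5 of 5 pairs), while in the other 5 pairs of groups 3 or 4 of 5 correlations were over 0.1. Slides 2, 3 and 4 were scanned on one day and 1 and 5 on another. Alternatives were normexp, quantile scaling, other filters, the value table, outlier spots kept, blocks, array weights, the 2 groups alone, a one-way test, and leaving out each array. The one-way test is the kind named in the study's methods, run here on the 2 groups of a comparison. Fits on Xist were added after seeing the data. A marker gene is not reported here and was left out of its list.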

Additional observations from a re-analysis of the deposited data

Results flagged for a closer look

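Aqp3 read 7.19 on uninjured Myd88KO array 5, with the other 4 arrays of the group between 6.12 and 6.38, so that its gap to the nearest was above Dixon's limit of 0.71 for 5 arrays. Of 50 groups of tested probes checked in this way, 1 stood out, and chance alone gives about 1 in 20.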

How the results depend on the processing

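Of 2114 single values recomputed, 2101 kept their side of the threshold, with a change of sign in 50 of these, none of them called, 5 dropped below it, 8 came above it and 0 called values turned sign. After injury in Myd88KO, the count of member probes called, 0 as reported, was 1 with normexp background, 1 with the replicate block (Slc14a1 probe 2, adjusted p = 0.00939 in limma), 1 with scan day as a term, 3 with array weights, and 1 with the arrays high in Xist alone, an alternative chosen after seeing the data. Leaving out 1 array gave 0 to 1, with 1 without injured Myd88KO array 5. Between the uninjured genotypes the count of 1 became 0 with the arrays high in Xist alone and ranged from 0 to 1 on leaving out 1 array, being 0 without wild-type array 3 or 4 or Myd88KO array 1 or 3. The replicate block, which pairs arrays by slide, changed no other member call. Over all probes, injury in wild-type gave 1372 calls, 1548 with the block, 2106 with scan day, 2630 with array weights, 319 with arrays high in Xist alone, and 665 to 1843 on leaving out 1 array. Injury in Myd88KO gave 98, and 143, 361, 2089, 253 and 6 to 1075 in the same order. It gave 60 without a filter and 0 both with the 2 groups alone and by the one-way test run on those 2 groups. The study, which described its test as made across all samples, did report transcripts that differed in this comparison. The uninjured genotypes gave 100, with 179 under array weights, 63 with probes above background on all arrays, 46 by the one-way test and 40 with arrays high in Xist alone. The injured genotypes gave 99, and 63, 38 (the 2 groups alone), 21 and 40. The causes were not tested. Probes near background, such as Slc14a2 probe 3, are limited by their signal.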
